A study of Homo sapiens and Mus musculus with 19 samples.

Results

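The zinc finger genes of human chromosome 19 were followed in chromatin-associated RNA (caRNA) of K562, a human erythroleukaemia cell line. Members were the protein-coding genes of chromosome 19 named ZNF and a number that reached 10 counts in 3 or more of the 12 K562 libraries. Of 58721 genes in the tables, 246 fitted the name and position, 209 of them passed the count rule, and 207 of these were tested. The study asked how loss of TET2, a dioxygenase that oxidises 5-methylcytosine in DNA and RNA, alters caRNA, and whether MBD6, a methyl-binding-domain protein, takes part. The 4 groups were TET2 wild type (WT) with a control hairpin (TET2 WT shControl), TET2 WT with a hairpin against MBD6 (TET2 WT shMBD6), TET2 knockout (KO) with the control hairpin (TET2 KO shControl) and TET2 KO with the MBD6 hairpin (TET2 KO shMBD6), each with 3 libraries. All 4 lines carried a stably integrated hairpin construct, 1 hairpin was used per target, and whether the knockout was 1 clone or how the replicate cultures were set up was not given in the sources used here, so that p-values measure the spread between these libraries.

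Most zinc finger proteins of this chromosome carry a KRAB domain at the amino terminus and an array of C2H2 zinc fingers that reads DNA. The KRAB domain binds TRIM28, which brings SETDB1 and HP1 proteins to the site, so that H3K9 methylation is laid down and the bound DNA is silenced. Many of these proteins bind retroelements. Their genes arose by tandem duplication, lie in clusters on chromosome 19 and differ mainly in the finger array. A KRAB pattern was found in the protein of 178 of the 209 members and not in that of 31. The members held 1 to 36 zinc fingers with a median of 12, and ZNF208 held the most.

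The start regions of 4 members are shown. They were chosen among members called in 1 direction under both hairpins and with a start window found by symbol. Of these they carried the 2 largest increases and the 2 largest decreases with shControl: ZNF730 and ZNF724 were higher in TET2 KO, ZNF880 and ZNF534 were lower. ZNF728 and ZNF738 had larger increases than ZNF724 (log2 changes 2.46 and 1.70), but no window was found for them. Each window runs from 250 bases before to 50 after the RefSeq start (GRCh38.p14), 5′ to 3′ on the gene's strand. The RefSeq start of ZNF730 lies well inside the annotated gene whose counts are used, downstream of that gene's own start. Capitals mark CG dinucleotides, the main site of DNA methylation. The windows are ZNF730 at chr19:23116775-23117074 on the plus strand, ZNF724 at chr19:23250345-23250644 on the minus strand, ZNF880 at chr19:52369673-52369972 on the plus strand and ZNF534 at chr19:52428898-52429197 on the plus strand.
ZNF730: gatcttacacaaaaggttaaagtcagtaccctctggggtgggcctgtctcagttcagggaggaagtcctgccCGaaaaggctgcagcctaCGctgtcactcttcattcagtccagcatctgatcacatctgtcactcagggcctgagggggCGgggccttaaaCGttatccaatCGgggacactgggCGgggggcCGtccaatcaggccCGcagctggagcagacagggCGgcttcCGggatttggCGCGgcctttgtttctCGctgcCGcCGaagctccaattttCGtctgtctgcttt
ZNF724: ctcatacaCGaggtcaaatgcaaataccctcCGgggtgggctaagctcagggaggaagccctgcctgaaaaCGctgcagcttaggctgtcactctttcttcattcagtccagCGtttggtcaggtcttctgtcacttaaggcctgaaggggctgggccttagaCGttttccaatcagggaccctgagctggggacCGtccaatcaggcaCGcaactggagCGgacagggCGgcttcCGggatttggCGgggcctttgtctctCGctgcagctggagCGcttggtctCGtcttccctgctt
ZNF880: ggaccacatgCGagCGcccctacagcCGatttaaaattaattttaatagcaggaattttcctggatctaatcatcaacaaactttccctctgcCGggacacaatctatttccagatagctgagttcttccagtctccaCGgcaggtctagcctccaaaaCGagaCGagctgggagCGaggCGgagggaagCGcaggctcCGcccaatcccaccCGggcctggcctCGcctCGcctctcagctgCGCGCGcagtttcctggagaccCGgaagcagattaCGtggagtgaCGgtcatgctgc
ZNF534: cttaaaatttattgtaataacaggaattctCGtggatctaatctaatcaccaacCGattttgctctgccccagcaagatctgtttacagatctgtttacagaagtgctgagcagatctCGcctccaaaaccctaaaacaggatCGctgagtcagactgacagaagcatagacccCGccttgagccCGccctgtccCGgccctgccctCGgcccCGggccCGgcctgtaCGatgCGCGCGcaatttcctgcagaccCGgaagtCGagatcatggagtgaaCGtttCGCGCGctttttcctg

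The ZNF730 and ZNF724 windows were 79.0% identical over 309 aligned columns, and the ZNF880 and ZNF534 windows were 57.6% identical over 335. The other pairs of these windows reached 45.8% to 49.1%. The windows held 16, 14, 20 and 20 CG dinucleotides in the order shown. A window was found by symbol for 185 members, with a median of 20 CG dinucleotides per window compared with 14 over all 35116 windows of the table. At least 1 CG stood in 100% of the members' windows and in 96.0% of all windows. The letters GGGCGG, the core of the SP1 site, stood on either strand of 67.0% of the members' windows and of 45.0% of all windows. The letters CCGGAAG, a site of ETS factors, stood in 45.9% of the members' windows and in 10.3% of all, and TATAAA in 2.16% and 11.5%. Each GGGCGG and CCGGAAG match contains 1 CG. All 4 windows shown held GGGCGG and CCGGAAG and none held TATAAA. A match describes the letters of the window only.

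Gene counts per library ran from 52158403 to 102070223. Of the 10 markers of K562, HBG2 and HBE1 were at 0 in every library, GATA1, TAL1, KLF1 and TFRC were present, and the summed level of the list was 810 to 832 CPM (counts per 1000000 gene counts after scaling), 559 to 577, 483 to 490 and 661 to 669 CPM in the 4 groups as listed above. The 6 lymphoid markers summed to 2.39 to 7.69 CPM and the 6 monocyte and granulocyte markers to 5.43 to 6.43, 8.81 to 12.6, 15.3 to 17.1 and 10.9 to 13.5 CPM in the same order. Of the latter, ITGAM (log2 change 2.19, adjusted p = 9.39e-10) and CSF3R (1.76, adjusted p = 7.79e-11) were higher in TET2 KO with the control hairpin. CD14 (1.56), LYZ (-0.04), CSF1R (-0.82) and MPO (-1.31) were not called there. With shMBD6, CSF3R was called higher in TET2 KO (0.47), and CSF1R (-4.25) and MPO (-3.3) were called lower. TET2 RNA was present at 121 ± 2.59, 122 ± 4.07, 129 ± 2.23 and 94.8 ± 5.28 CPM in that order of groups (SD, n = 3). It was lower in TET2 KO with shMBD6 (log2 change -0.36, adjusted p = 3.90e-09) and not called with shControl (0.09, adjusted p = 0.0735), and its RNA is no check of the knockout. MBD6 was at 43.3, 42.7 and 38.6 CPM in TET2 WT shControl, against 31.0, 25.7 and 27.2 CPM in TET2 WT shMBD6 (log2 change -0.57, SE 0.08, adjusted p = 1.83e-07, from edgeR). In TET2 KO it was at 30.6, 30.8 and 29.4 CPM in the libraries labelled shControl and at 30.6, 38.3 and 34.2 CPM in those labelled shMBD6 (log2 change 0.19, adjusted p = 0.0574). A fall of MBD6 was thus not seen in the libraries labelled TET2 KO shMBD6, and every direction drawn from the 2 TET2 KO groups is given for the libraries as labelled. Between genotypes, MBD6 was lower in TET2 KO with shControl (log2 change -0.46, adjusted p = 6.50e-06). With shMBD6 it was higher in TET2 KO (0.30, adjusted p = 0.00139). The 2 genotype comparisons rest on the hairpin labels in TET2 KO as the hairpin comparison does.

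Counting left a gap in the family. Of the 37 chromosome 19 ZNF genes under the count rule, 26 had 0 counts in all 12 libraries, and 25 of these 26 shared their strand and position with another annotated gene. HTSeq sets reads from such an overlap aside as ambiguous in its default mode, so that a value of 0 for these genes, among them ZNF8, ZNF17 and ZNF816, does not show that they were silent. ZNF417, a repressor of HERV-K elements, also with such an overlap, had 1 count in all. A further 71 members had such an overlap over part of their span and may be undercounted to an unknown degree, and 138 had none. The tables' summary lines show multiply aligned reads left out as well. In 14 members over 10% of the 50-base stretches of the longest transcript recurred in another ZNF gene, with 56.8% in ZNF98, 24.2% in ZNF587 and 19.5% in ZNF585B, and the median over members was 0.401%. No member owed its place to libraries of 1 group alone, and 182 members had 10 or more counts in all 12 libraries.

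The members were expressed at low levels on chromatin. Per kb of exon length, the median level in TET2 WT shControl was 2.05 CPM, with quartiles of 0.582 and 4.28 CPM and a range of 0.00328 to 29.2 CPM. The highest was ZNF83 at 29.2 ± 0.898 CPM per kb of exon (SD, n = 3), followed by ZNF586 at 24.1 ± 1.01, ZNF146 at 21.1 ± 0.211, ZNF627 at 18.6 ± 0.702 and ZNF274 at 14.6 ± 0.605. ZNF274 binds the 3′ ends of other ZNF genes and brings SETDB1 to them, and ZNF146 is a protein of fingers with no KRAB domain. These 5 levels stood apart by more than their SDs. ZNF83, ZNF586 and ZNF627 overlap other annotated genes on their strand. The order depended on the length used: per kb of gene span, introns included, ZNF792 was highest at 5.74 CPM, followed by ZNF274 at 3.99, ZNF460 at 3.86, ZNF146 at 3.61 and ZNF121 at 3.19 CPM. Olfactory receptor genes, which K562 is not known to use and which serve here as background, averaged 0.0947 CPM per kb of gene span, and 83 members lay under 3 times that level.

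Together the members took 0.440% to 0.447% of gene counts in TET2 WT shControl, 0.398% to 0.400% in TET2 WT shMBD6, 0.377% to 0.379% in TET2 KO shControl and 0.413% to 0.417% in TET2 KO shMBD6. The 4 groups did not overlap, and TET2 WT shControl was highest. ZNF genes of other chromosomes took 1.01% ± 0.0082 (SD, n = 3), 0.996% ± 0.0026, 1.06% ± 0.0029 and 1.07% ± 0.0020 in the same order of groups. The background of olfactory receptor genes was 0.0809 ± 0.0033, 0.0918 ± 0.0016, 0.117 ± 0.0015 and 0.0886 ± 0.0036 CPM per kb of gene span, and mitochondrial genes took 0.0229%, 0.0460%, 0.0514% and 0.0254% of gene counts. Both were lowest where the members' share was highest, as was the summed level of the monocyte and granulocyte markers, at 5.43 to 6.43 CPM. The sum of the K562 markers was highest there, at 810 to 832 CPM, of which TFRC held 578 CPM, whereas ALAS2 was at 25.3 CPM there and at 37.4 CPM in TET2 WT shMBD6 and 31.2 CPM in TET2 KO shControl. The part of these measures in the members' share was not tested, and in bulk RNA fewer cells of a kind and less RNA per cell cannot be told apart.

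**Figure D1:**
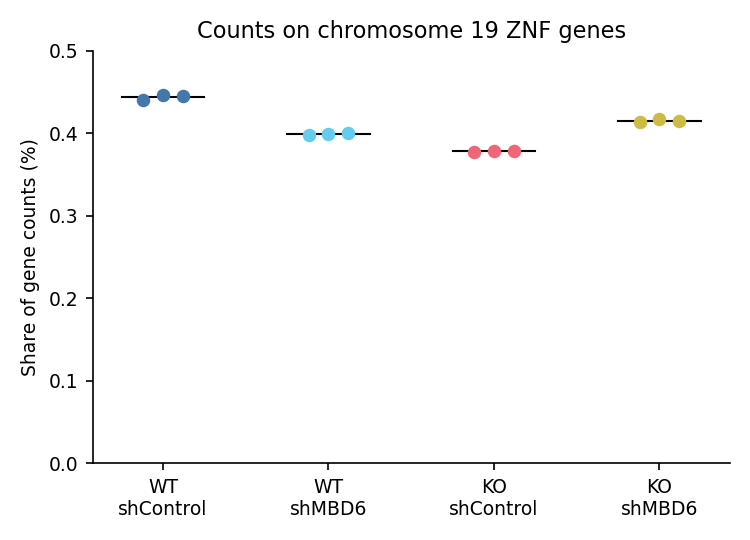
Share of gene counts (%) held by the 209 chromosome 19 ZNF genes in each of the 12 libraries, by group. Points are libraries and bars are group means; the 3 TET2 WT shControl libraries lie at 0.440% to 0.447%, above all others.

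With the control hairpin, TET2 KO libraries held less RNA of the family than TET2 WT libraries. Among the 207 members tested, TET2 KO was lower in 82 and higher in 36 (edgeR, adjusted p under 0.05), that is 39.6% and 17.4% of members compared with 22.3% and 23.5% of all 26023 genes and 27.8% and 26.5% of all protein-coding genes. The median log2 change was -0.19 over members, -0.05 over all genes and -0.06 over protein-coding genes. Other protein-coding genes of chromosome 19 had 27.7% lower and 16.6% higher with a median of -0.15, and ZNF genes of other chromosomes had 29.5% lower and 30% higher with a median of -0.02. At least 2-fold differences were called lower in 24 members (11.6%) and higher in 10 (4.83%), compared with 7.91% and 9.78% of all genes. When libraries were scaled by total gene counts, 114 members were called lower and 24 higher, with the median of all genes at -0.23.

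ZNF880 had the largest decrease, from a level under 3 times the olfactory receptor background per kb of gene span. This KRAB gene (ENSG00000221923.8, chromosome 19, 52369917 to 52385795, plus strand, hg38) was at 1.33, 2.16 and 1.83 CPM in TET2 WT shControl, against 0.0715, 0.122 and 0.105 CPM in TET2 KO shControl. All TET2 KO libraries, with 6 to 8 counts each, lay below all TET2 WT libraries, with 96 to 225 counts. The log2 change was -4.16 (SE 0.58, adjusted p = 2.67e-07), or 17.8-fold lower. ZNF534, a repressor of HERV-H elements and the next member but 1 along the chromosome, was at 3.65, 3.78 and 3.68 CPM in TET2 WT, against 0.596, 1.18 and 0.435 CPM in TET2 KO. Its groups did not overlap (log2 change -2.35, SE 0.33, adjusted p = 3.77e-07). ZNF534 too lay under 3 times the olfactory receptor background per kb of gene span in every group. ZNF528, which lies between them, had 8.49 and 9.18 CPM on average (adjusted p = 0.555). ZNF418 was at 12.5, 9.16 and 11.6 CPM in TET2 WT, against 2.64, 2.23 and 2.86 CPM in TET2 KO (log2 change -2.10, SE 0.17, adjusted p = 1.18e-12). ZNF585B was at 0.457, 0.739 and 0.866 CPM in TET2 WT, against 0.0953, 0.192 and 0.105 CPM in TET2 KO (log2 change -2.40, SE 0.81, adjusted p = 0.0146). This call was lost without TET2 WT shControl replicate 3 or without TET2 KO shControl replicate 1 or 3, where the log2 change was -2.28 to -2.2, and the gene shares sequence and strand with neighbours.

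ZNF730 had the largest increase. It (ENSG00000183850.13, chromosome 19, 23075210 to 23147221, plus strand) was at 4.53, 4.91 and 4.91 CPM in TET2 WT shControl, against 69.9, 69.8 and 74.8 CPM in TET2 KO shControl. The groups stood far apart (log2 change 3.90, SE 0.09, adjusted p = 4.77e-28), a 14.9-fold difference. Both values omit reads shared with 2 overlapping genes on its strand. ZNF728, its neighbour, was at 2.10, 2.2 and 1.92 CPM in TET2 WT, against 10.3, 12.5 and 11.6 CPM in TET2 KO (log2 change 2.46, SE 0.17, adjusted p = 5.81e-14). ZNF738 was at 2.80, 3.28 and 2.73 CPM and at 8.85, 9.53 and 10.2 CPM (log2 change 1.70, SE 0.16, adjusted p = 7.66e-11). ZNF233 was at 0.208, 0.393 and 0.129 CPM and at 1.29, 0.627 and 0.580 CPM (log2 change 1.76, SE 0.56, adjusted p = 0.00987). Its call was lost without TET2 KO shControl replicate 1 or TET2 WT shControl replicate 3, with log2 changes of 1.30 and 1.45.

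The same genotype comparison in the shMBD6 lines used the other 6 libraries and shared none with the first. In these lines TET2 KO was called higher for 81 members and lower for 39, that is 39.1% and 18.8% compared with 30.1% and 28.5% of all genes. Of all protein-coding genes 39.4% were higher and 27.8% lower, so that the members' share of increases was near that of protein-coding genes and their share of decreases was smaller. The median log2 change was 0.18 over members, -0.03 over all genes, 0.08 over protein-coding genes and 0.31 over ZNF genes of other chromosomes. The balance depended on the scaling: with DESeq2 size factors 59 members were higher and 53 lower, and scaled by total gene counts it was 55 against 55. The members' medians were then 0.06 and 0.03. Scaling moves all genes of a comparison by about the same amount, so the margin of 0.21 above all genes cannot change with it. This margin was 0.06 with a stricter filter on low counts and 0.67 with no filter. At least 2-fold differences were called lower in 23 members (11.1%) and higher in 6 (2.90%), compared with 21.8% and 5.08% of all genes.

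**Figure D2:**
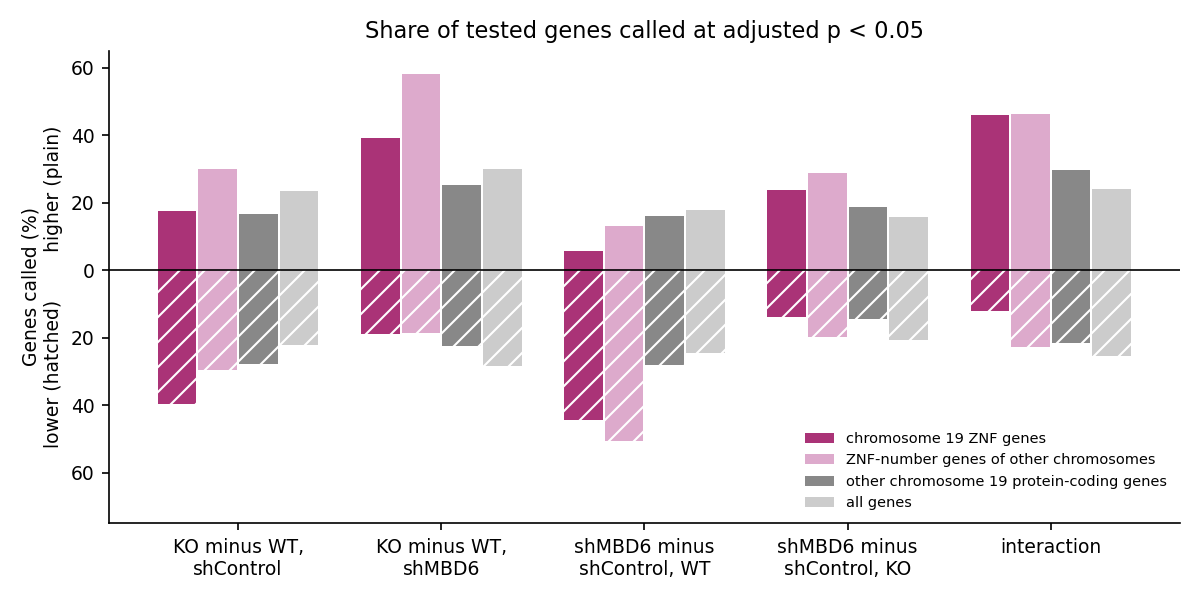
Percent of tested genes called higher (plain bars, upwards) or lower (hatched bars, downwards) in each comparison, for chromosome 19 ZNF genes, ZNF genes of other chromosomes, other protein-coding genes of chromosome 19 and all genes. Of the chromosome 19 ZNF genes, 39.6% were lower in TET2 KO with shControl and 39.1% were higher in TET2 KO with shMBD6.

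A set of members kept 1 direction under both hairpins. In TET2 KO, 24 members were called lower in both genotype comparisons (11.6%, compared with 7.42% of all genes and 7.60% of protein-coding genes) and 16 higher in both (7.73%, compared with 10.3% and 12.3%). ZNF880 was at 1.63, 1.20 and 1.89 CPM in TET2 WT shMBD6, against 0.0914, 0.143 and 0 CPM in TET2 KO shMBD6, again without overlap (log2 change -4.34, SE 0.59, adjusted p = 1.75e-07). ZNF677, a KRAB gene, was at 1.30, 0.794 and 1.34 CPM in TET2 WT shMBD6, against 0, 0.0855 and 0.143 CPM in TET2 KO shMBD6 (log2 change -3.85, SE 0.73, adjusted p = 3.41e-05), and was lower with shControl too (-1.85, adjusted p = 0.0170). ZNF536, a factor of neural tissue with no KRAB pattern, was at 5.55, 7.53 and 5.92 CPM, against 0.640, 0.413 and 0.870 CPM with shMBD6 (log2 change -3.29, SE 0.28, adjusted p = 7.96e-12) and changed by -1.58 with shControl (adjusted p = 1.01e-05). The groups of both genes were separate with shMBD6. ZNF610 was lower with shMBD6 alone, at 0.498, 0.635 and 0.781 CPM in TET2 WT, against 0.0609, 0.171 and 0.0260 CPM in TET2 KO (log2 change -2.87, SE 0.88, adjusted p = 0.00616, compared with 0.61 and adjusted p = 0.578 with shControl). ZNF730 was at 7.59, 6.17 and 7.22 CPM and at 49.4, 57.7 and 60.9 CPM (log2 change 2.99, SE 0.08, adjusted p = 7.59e-25). ZNF43, named here after its values were seen, was the most abundant of the members with a difference over 4-fold in both. It was at 90.0, 90.9 and 93.3 CPM in TET2 WT shControl, against 22.2, 21.1 and 21.0 CPM in TET2 KO shControl, and at 72.0, 72.8 and 71.2 CPM and 20.4, 16.6 and 15.9 CPM with shMBD6. The groups were separate in both pairs (log2 changes -2.09 and -2.03, SE 0.07 for each, adjusted p = 1.13e-23 and 7.30e-23), no other gene overlaps ZNF43 on its strand, and its RNA fell about 4.26-fold and 4.09-fold. ZNF350, which binds BRCA1, was at 4.93, 5.05 and 4.8 CPM and 1.31, 0.941 and 1.34 CPM with shControl, and at 4.14, 3.16 and 2.76 CPM and 1.66, 0.998 and 1.77 CPM with shMBD6. It was lower in TET2 KO in both (log2 changes -2.03 and -1.19, adjusted p = 3.50e-08 and 0.000143). Its level per kb of gene span was under 3 times the olfactory receptor background in every group.

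**Figure D3:**
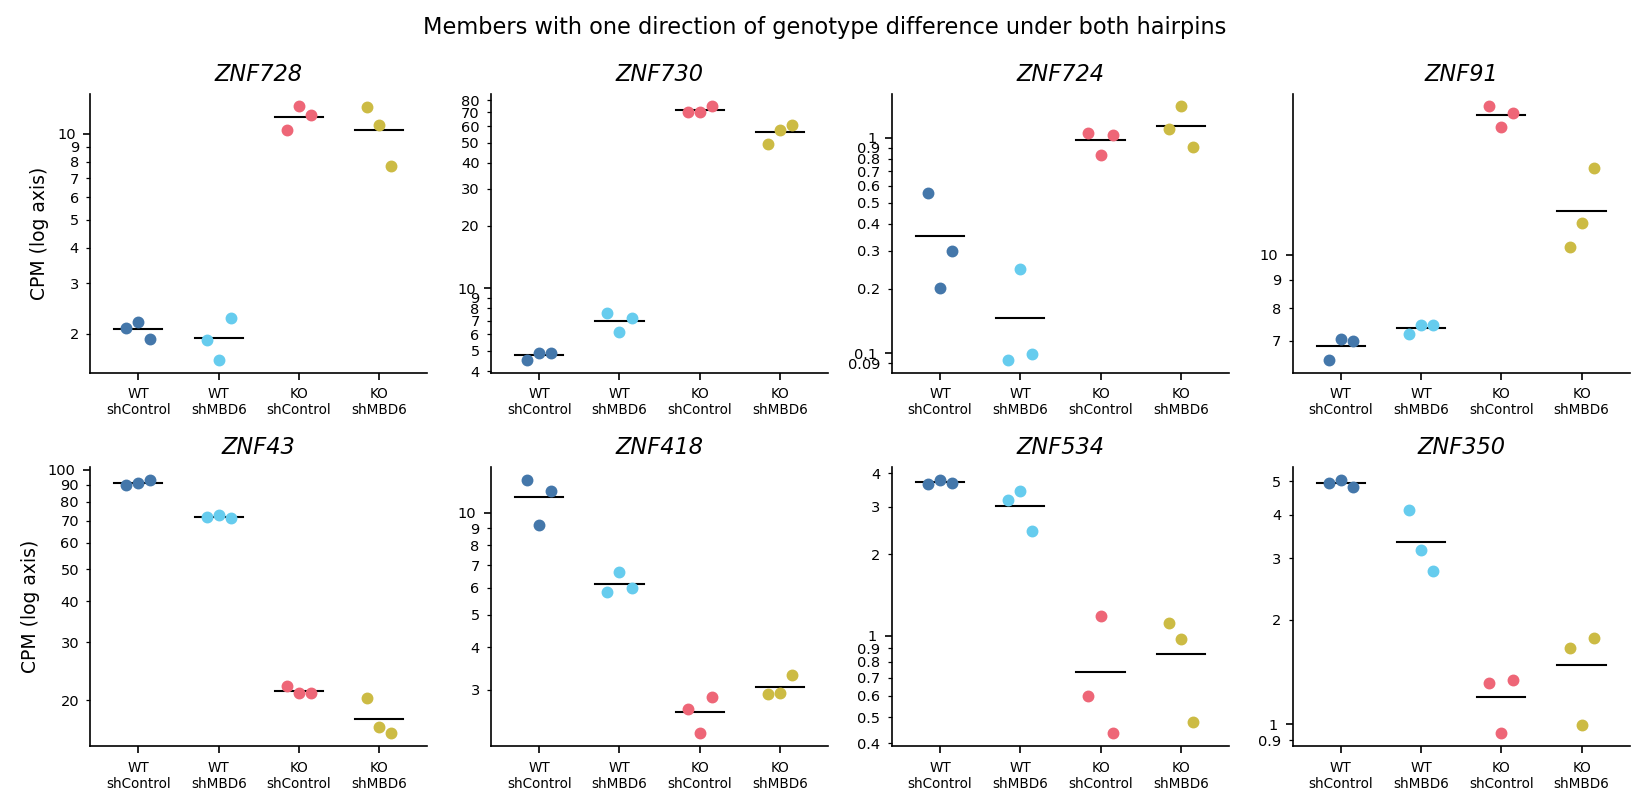
CPM (log axis, a separate scale per gene) of 8 members in the 12 libraries, by group; points are libraries and bars are group means. ZNF728, ZNF730, ZNF724 and ZNF91 lie higher in the TET2 KO groups, and ZNF43, ZNF418, ZNF534 and ZNF350 lie lower, under both hairpins.

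Several of these members were neighbours. ZNF728, ZNF730, ZNF724 and ZNF91 follow each other between 22974883 and 23395471 on chromosome 19 and were called higher in TET2 KO under both hairpins. ZNF724 was at 0.554, 0.201 and 0.299 CPM in TET2 WT shControl, against 1.05, 0.836 and 1.03 CPM in TET2 KO shControl (log2 change 1.48, SE 0.52, adjusted p = 0.0187), and with shMBD6 the change was 2.98 (SE 0.56, adjusted p = 3.47e-05). ZNF91, which represses SVA retrotransposons, was at 6.46, 7.04 and 7 CPM and at 18.5, 17.0 and 18.0 CPM with shControl (log2 change 1.38, SE 0.12, adjusted p = 7.95e-12). With shMBD6 it was at 7.19, 7.48 and 7.47 CPM and at 10.3, 11.4 and 14.3 CPM (log2 change 0.70, SE 0.12, adjusted p = 6.30e-06). Per kb of gene span ZNF91 lay below the olfactory receptor background in both TET2 WT groups. It stayed under 3 times that background in both TET2 KO groups. The next members, ZNF675, a TRAF6-binding protein, and ZNF681, averaged 42.0 and 25.4 CPM in TET2 WT shControl, against 37.7 and 18.6 CPM in TET2 KO shControl (adjusted p = 0.0301 and 0.000107). The call of ZNF675 was lost without TET2 KO shControl replicate 1 or 2 or TET2 WT shControl replicate 2 or 3 (-0.16 to -0.14), and with shMBD6 neither was called (-0.03 and -0.17, adjusted p = 0.663 and 0.122). A further 3 runs of 3 neighbours were called in 1 direction in both comparisons: ZNF682, ZNF90 and ZNF486 were lower, ZNF460, ZNF543 and ZNF304 were higher, and ZNF418, ZNF256 and ZNF606 were lower. ZNF486 fell from 25.7 to 10.2 CPM on average with shControl and from 21.0 to 8.78 CPM with shMBD6 (adjusted p = 5.17e-14 and 3.17e-13). These runs were picked out after the values were seen.

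Another set turned round between the hairpins, at a share near that of other protein-coding genes. Of the members, 32 (15.5%) were called lower in TET2 KO with shControl and higher in TET2 KO with shMBD6, compared with 10.4% of all genes, 15.0% of all protein-coding genes and 14.1% of other protein-coding genes of chromosome 19. The other way went 4 (1.93%), compared with 5.57% of all genes and 6.48% of protein-coding genes. ZNF627, a KRAB gene, was at 73.6, 71.1 and 68.3 CPM in TET2 WT shControl, against 55.2, 55.7 and 55.6 CPM in TET2 KO shControl, 53.5, 53.5 and 55.5 CPM in TET2 WT shMBD6 and 81.3, 79.2 and 79.5 CPM in TET2 KO shMBD6. The 4 groups formed a high and a low pair, with TET2 KO lower under shControl (log2 change -0.35, SE 0.05, adjusted p = 6.10e-08) and higher under shMBD6 (0.56, SE 0.05, adjusted p = 2.26e-12). ZNF274 was at 119, 128 and 119 CPM, 100, 99.5 and 100 CPM, 92.3, 89.4 and 93.2 CPM and 105, 117 and 106 CPM in the same order of groups. It too was lower and then higher in TET2 KO (log2 changes -0.29 and 0.26, SE 0.04 for each). ZNF382, ZNF404, ZNF430 and ZNF616 were the 4 that went the other way. ZNF382 belongs there by a call with shControl (log2 change 1.17, adjusted p = 0.0364) that was lost with total gene counts, with no filter and without any 1 of 7 single libraries (TET2 KO shControl replicates 2 and 3, TET2 WT shControl replicates 1 and 3 and each TET2 WT shMBD6 replicate), with changes of 1.00 to 1.17.

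The members were also taken by their place along the chromosome. Genes whose starts lay within 1 Mb of a neighbour were joined, which gave 9 clusters with 5 or more members tested and 197 tested members in them. With shControl the last cluster, ZNF628 to ZNF446 (55476617 to 58481230), had the lowest median log2 change at -0.40, with 20 of its 46 tested members lower and 6 higher in TET2 KO, beside 39.6% and 17.4% of all members and 22.3% and 23.5% of all genes. The cluster ZNF565 to ZNF573 had a median of -0.38, with 13 of 25 lower and 1 higher. The cluster ZNF101 to ZNF254, which lies beside the centromere and holds ZNF43, ZNF91 and ZNF730, had 11 of 33 lower and 10 higher, with 16 positive and 17 negative changes. The small cluster ZNF554 to ZNF77 near the short-arm end had 2 of 5 called higher, with all 5 changes positive and a median of 0.32. With shMBD6 the medians ran from -0.03 in ZNF565 to ZNF573 to 0.52 in ZNF302 to ZNF792, where 4 of 5 members were higher in TET2 KO. The last cluster then had 15 of 46 higher and 5 lower with a median of 0.21, beside 39.1% and 18.8% of all members. These are descriptions of neighbouring genes that share libraries, and the clusters were not tested against each other.

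**Figure D4:**
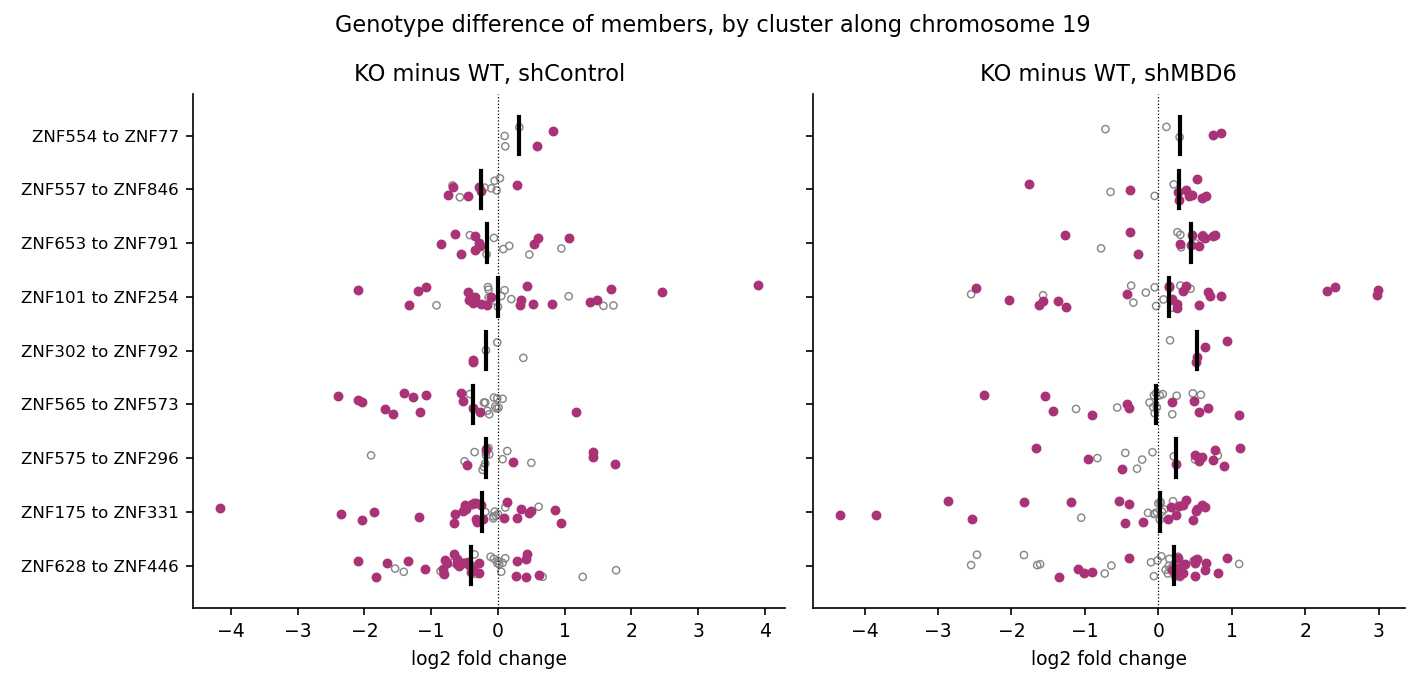
Log2 fold change between TET2 KO and TET2 WT for members tested in the 9 clusters, in order along chromosome 19, with shControl (left) and shMBD6 (right). Filled points were called and open points were not; the vertical bars are cluster medians, such as -0.40 and 0.21 in ZNF628 to ZNF446.

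With the MBD6 hairpin in TET2 WT a large share of the family was lower, mostly by small amounts. Of 207 members 92 (44.4%) were called lower and 12 (5.80%) higher in TET2 WT shMBD6 than in TET2 WT shControl, compared with 24.7% and 17.7% of all genes and 34.9% and 19.5% of protein-coding genes. The median log2 change was -0.25 over members and -0.23 over ZNF genes of other chromosomes, of which 50.6% were lower and 13.1% higher. It was -0.03 over other protein-coding genes of chromosome 19, -0.04 over all protein-coding genes and 0.10 over all genes. With DESeq2 size factors or total gene counts the members' median was -0.14 or -0.15. The margin of 0.34 below all genes cannot change with scaling. It was 0.22 with a stricter filter on low counts and 0.54 with no filter. DESeq2 called 69 lower and 20 higher. A 2-fold decrease was reached by 2 of the members called lower, ZNF416 and ZNF414. ZNF416 was at 6.51, 5.97 and 5.42 CPM with shControl and at 2.94, 2.77 and 2.90 CPM with shMBD6 (log2 change -1.05, SE 0.21, adjusted p = 7.97e-05). ZNF414, which has 3 fingers and no KRAB pattern, was at 4.07, 5.17 and 3.43 CPM and at 1.84, 2.27 and 2.02 CPM (log2 change -1.05, SE 0.22, adjusted p = 0.000193). ZNF582, a gene methylated in several cancers, was at 4.55, 6.02 and 6.49 CPM and at 3.32, 2.87 and 2.34 CPM (log2 change -1.0, SE 0.20, adjusted p = 0.000126), and ZNF671 went from 5.09 ± 0.246 to 2.82 ± 0.295 CPM (SD, n = 3, log2 change -0.85). The groups of these 4 genes did not overlap.

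The increases with shMBD6 in TET2 WT were fewer. ZNF382 was at 0.360, 0.547 and 0.328 CPM with shControl and at 1.03, 1.75 and 1.14 CPM with shMBD6 (log2 change 1.65, SE 0.46, adjusted p = 0.00390). ZNF404 went from 0.801 ± 0.269 to 2.15 ± 0.418 CPM (SD, n = 3, log2 change 1.43, adjusted p = 0.00198). ZNF536 was at 1.85, 2.40 and 2.70 CPM and at 5.55, 7.53 and 5.92 CPM (log2 change 1.45, SE 0.25, adjusted p = 1.63e-05), and it overlaps another gene on its strand. ZNF331, an imprinted gene, was at 6.38, 6.0 and 6.13 CPM and at 10.6, 10.8 and 12.2 CPM (log2 change 0.86, SE 0.12, adjusted p = 1.96e-07). Its level per kb of gene span was under 3 times the olfactory receptor background in every group. All 4 had separate groups. This comparison and that of TET2 KO with TET2 WT under shControl share the 3 TET2 WT shControl libraries, so that their members' directions are not independent of each other.

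In TET2 KO the hairpin comparison gave another balance. In the libraries labelled TET2 KO shMBD6, 49 members (23.7%) were called higher and 29 (14%) lower than in those labelled TET2 KO shControl, compared with 15.7% and 20.6% of all genes and 21.6% and 23.6% of protein-coding genes. The median log2 change was 0.05 over members and -0.07 over all genes, and the members' median was 0.02 without TET2 KO shControl replicate 3. Total gene counts as the scale gave 73 higher against 18 lower, with the median of all genes at 0.04. ZNF607 was at 0.750, 0.644 and 0.764 CPM in the libraries labelled shControl and at 1.74, 1.60 and 2.43 CPM in those labelled shMBD6 (log2 change 1.41, SE 0.37, adjusted p = 0.00232). ZNF527 was at 1.21, 0.958 and 0.896 CPM and at 3.21, 2.05 and 2.58 CPM (log2 change 1.35, SE 0.26, adjusted p = 8.10e-05). ZNF837 and ZNF671 were also higher, by 0.82 and 0.76 on the log2 scale. ZNF382 was at 0.727, 1.06 and 1.01 CPM and at 0.244, 0.285 and 0.221 CPM (log2 change -1.90, SE 0.48, adjusted p = 0.00194). ZNF404 was at 2.07, 2.44 and 1.96 CPM and at 0.320, 0.570 and 1.12 CPM (log2 change -1.68, SE 0.38, adjusted p = 0.000558). ZNF90 (log2 change -0.89) and ZNF66 (-0.87) were lower too, and the call of ZNF66 was lost when only the 2 groups compared were fitted.

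The 2 hairpin comparisons share no library. No member was called higher in both by edgeR, compared with 0.388% of all genes (0 at an unadjusted p under 0.05, 0 by DESeq2), and 5 (2.42%) were lower in both, compared with 2.64%: ZNF43, ZNF44, ZNF83, ZNF121 and ZNF850. ZNF83 lost its TET2 WT call with DESeq2, its size factors and no filter (-0.07), and its TET2 KO call with total gene counts (-0.02) and no filter (-0.09). A further 37 (17.9%) were lower with shMBD6 in TET2 WT and higher in the libraries labelled TET2 KO shMBD6, compared with 12.6% of all genes, 18.0% of protein-coding genes and 26.2% of ZNF genes of other chromosomes. The other way went 8 (3.86%), compared with 10.2% of all genes and 11.5% of protein-coding genes. These classes rest on the hairpin labels in TET2 KO: were those labels exchanged, the same values would read as 37 members lower in both and 8 higher in both. The test of the difference itself, the interaction of genotype and hairpin, is the log2 change with shMBD6 in TET2 KO minus that in TET2 WT. It was called positive in 95 members (45.9%) and negative in 25 (12.1%), compared with 23.9% and 25.5% of all genes and 32.8% and 27.1% of protein-coding genes. Its median was 0.27 over members and over ZNF genes of other chromosomes, 0.06 over other protein-coding genes of chromosome 19, -0.02 over all protein-coding genes and -0.19 over all genes. Members stood 0.46 above all genes, a margin that cannot change with scaling. It was 0.29 with a stricter filter on low counts and 0.82 with no filter.

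The largest positive interactions called were those of ZNF585B (2.87, SE 1.11, adjusted p = 0.0311), ZNF607 (2.18, SE 0.51, adjusted p = 0.000606) and ZNF527 (1.89, SE 0.36, adjusted p = 4.45e-05). ZNF585B was spread from 0.0143 to 0.688 CPM in TET2 KO shMBD6, and its call was lost under 8 alternatives. The largest negative ones called were those of ZNF382 (-3.55, SE 0.67, adjusted p = 3.61e-05), ZNF610 (-3.48, SE 1.19, adjusted p = 0.0154) and ZNF404 (-3.11, SE 0.53, adjusted p = 8.48e-06). ZNF610 was below 1 CPM in every library. ZNF382 was therefore 3.14-fold higher with the hairpin in TET2 WT. It was 3.72-fold lower in the libraries labelled TET2 KO shMBD6 than in those labelled TET2 KO shControl. Per kb of gene span ZNF382 lay below the olfactory receptor background in every group.

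**Figure D5:**
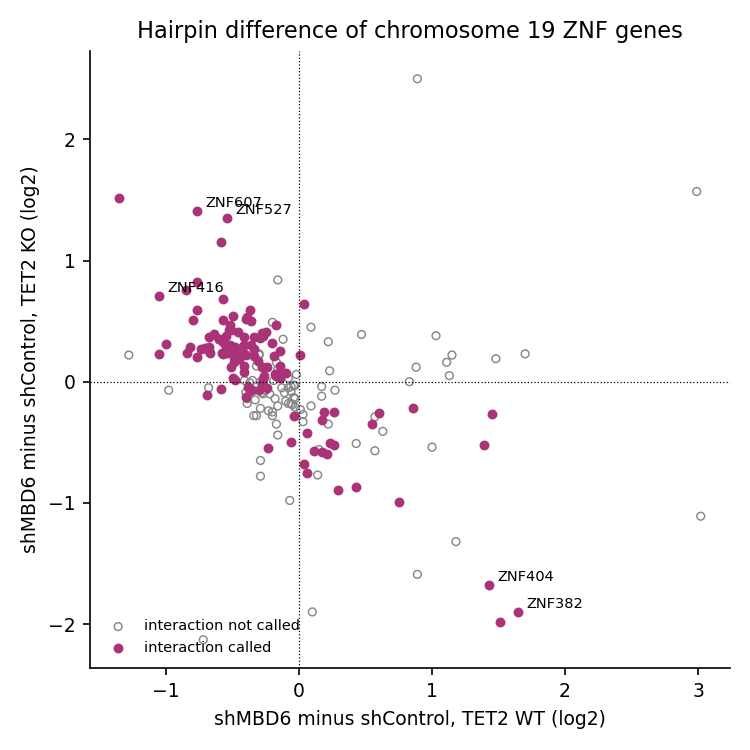
Log2 fold change between shMBD6 and shControl for the 207 members tested, in TET2 WT (x axis) and in the libraries labelled TET2 KO (y axis). Filled points had a called interaction; 95 of these were positive and lie towards the upper left, and 25 were negative and lie towards the lower right.

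Members were next taken by the roles they are known for. Of 9 genes listed as binding retroelements, 8 were members and tested, ZNF417 being under the count rule. Of these 8, 3 were higher and 2 lower in TET2 KO with shControl (median log2 change 0.02), where 23.5% and 22.3% of all genes were called. With shMBD6, 5 were higher and 1 lower (0.21, all genes 30.1% and 28.5%). Of these 5 calls, that of ZNF649 was lost under 10 alternatives (0.10 to 0.25) and that of ZNF808 under 9 (0.02 to 0.12). With the MBD6 hairpin 1 was higher and 3 lower in TET2 WT (-0.11, all genes 17.7% and 24.7%), and 2 were higher and 3 lower in TET2 KO (all genes 15.7% and 20.6%). The TET2 WT call of ZNF808 was lost under 8 alternatives (-0.16 to -0.07). ZNF93, which represses LINE-1 elements, was at 63.8 ± 2.38, 64.1 ± 1.63, 66 ± 1.23 and 76.8 ± 5.53 CPM in TET2 WT shControl, TET2 WT shMBD6, TET2 KO shControl and TET2 KO shMBD6 (SD, n = 3), with a genotype change of 0.05 under shControl (adjusted p = 0.451) that reads -0.13 when scaled by total gene counts, and a rise in TET2 KO with shMBD6 (0.26, adjusted p = 3.73e-05). ZNF611, a second SVA-binding protein, was at 79.6 ± 2.09, 62.6 ± 2.02, 79.4 ± 0.867 and 75.8 ± 2.00 CPM and was lower with shMBD6 in TET2 WT (log2 change -0.35, adjusted p = 4.96e-08). ZNF587, a repressor of HERV-K elements with much sequence in common with its neighbours, was at 26.5 ± 0.818, 31.6 ± 1.68, 36.0 ± 1.14 and 30.3 ± 3.07 CPM and was higher in TET2 KO with shControl (0.44, adjusted p = 4.09e-06). ZNF649 was lower there (-0.53, adjusted p = 2.34e-05), ZNF765 was higher (0.29, adjusted p = 0.000771), and ZNF808 had a change of -0.07 (adjusted p = 0.411). ZNF91 and ZNF534, given above, made the 2 largest changes of the list, in opposite directions.

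Of 15 members listed for other known roles, 4 were higher and 6 lower in TET2 KO with shControl (median log2 change -0.18), where 23.5% of all genes were higher and 22.3% lower. With shMBD6, 4 were higher and 3 lower (-0.07), where 30.1% and 28.5% of all genes were called. Of the increases, that of ZNF582 lost its call under 11 alternatives (0.35 to 0.51) and that of ZNF431 under 6 (0.03 to 0.11). Among the decreases, that of ZNF541 lost its call under 2 (-1.67 to -1.44). ZNF175 was at 46.4, 44.9 and 49.7 CPM in TET2 WT shControl, against 83.0, 85.8 and 86.2 CPM in TET2 KO shControl (log2 change 0.85, SE 0.05, adjusted p = 9.38e-16), while TET2 WT shMBD6 and TET2 KO shMBD6 averaged 56.1 ± 1.44 and 59.3 ± 3.51 CPM (SD, n = 3, adjusted p = 0.180). ZNF331 was at 12, 12 and 11.5 CPM in TET2 KO shControl, above its TET2 WT shControl libraries (log2 change 0.94, adjusted p = 2.78e-08). ZNF304 was higher in TET2 KO under both hairpins (0.42 and 0.94, adjusted p = 0.00888 and 2.46e-07), the first call being lost with total gene counts (0.24) and without TET2 KO shControl replicate 3 (0.37). ZNF420, a regulator of p53, was lower with shControl (-0.27, adjusted p = 0.000788). ZNF431 and ZNF675 had differences of -0.11 and -0.16 in the same comparison, small beside those of ZNF350 (-2.03). The call of ZNF431 was lost when any 1 of 5 libraries was left out (-0.12 to -0.08). ZNF224, ZNF568, ZNF296, ZNF471 and ZNF541 were not called in that comparison (adjusted p = 0.268, 0.203, 0.743, 0.298 and 0.840). ZNF471, ZNF541, a meiosis protein, and ZNF296 were at or below 1.33 CPM on average in every group.

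The partners of KRAB proteins were read from a list of 21 genes of the TRIM28, HP1, H3K9 methylation and histone deacetylase systems. All 21 were tested, and 7 were higher and 4 lower in TET2 KO with shControl (median log2 change 0.00, all genes 23.5% and 22.3%), and 13 higher and 2 lower with shMBD6 (0.21, all genes 30.1% and 28.5%). With shMBD6 in TET2 WT, 1 was higher and 13 lower (-0.19, all genes 17.7% and 24.7%), and in the libraries labelled TET2 KO shMBD6 3 were higher and 6 lower (-0.01, all genes 15.7% and 20.6%). TRIM28 was at 69.2 ± 2.29 (TET2 WT shControl), 57.6 ± 1.09 (TET2 WT shMBD6), 63.8 ± 1.74 (TET2 KO shControl) and 69.0 ± 5.20 CPM (SD, n = 3; TET2 KO shMBD6). It was lower with shMBD6 in TET2 WT (log2 change -0.26, adjusted p = 6.62e-05) and was not called between genotypes under shControl (-0.12, adjusted p = 0.0577). SETDB1 was at 60.6 ± 1.83, 49.1 ± 0.843, 57.0 ± 2.37 and 56.4 ± 1.54 CPM in the same order, lower with shMBD6 in TET2 WT and not called between genotypes under shControl (-0.30, adjusted p = 6.85e-06, compared with -0.09 and adjusted p = 0.155). SUV39H1, an H3K9 methyltransferase, was at 29 ± 1.73, 18.9 ± 0.822, 17.2 ± 1.29 and 27.9 ± 1.99 CPM, with an interaction of 1.31 (SE 0.11, adjusted p = 1.56e-11).

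The members were also read by their protein and start region. Members with a KRAB pattern had median log2 changes of -0.18 and 0.17 in TET2 KO with shControl and shMBD6, and members without one had -0.24 and 0.25. By finger number, the medians with shControl were -0.25 for up to 10 fingers, -0.16 for 11 to 14 and -0.18 for 15 or more. Members called higher in TET2 KO with shControl had a median of 17 CG dinucleotides in the start window (33 with a window), those called lower 21 (75) and those not called 20 (75). For the interaction the medians were 22 in the 86 positive members with a window, 15 in the 24 negative ones and 20 in the 73 not called. Members without an overlapping gene on their strand had median interactions of 0.34, and those with one of 0.17. These medians are descriptions, given without a test.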

How the data were processed

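Chromatin-associated RNA of 12 K562 libraries was analysed; the mouse libraries were not used here. The authors deposited raw read counts per gene, 1 table per library, unscaled, with 58721 genes and 5 summary lines that were left out of library sizes. Reads outside genes made up 13.1% to 16.0% of records. Submitters' processing notes name Trimmomatic 0.39, HISAT2 2.2.1 and HTSeq 0.12.4, with hg38. The study's methods also name featureCounts and DESeq2 for caRNA and an ERCC spike-in, of which the tables held 0 lines, so that all values are relative to the other genes of a library. The sources used here name neither the feature type nor the strand setting of the count step. The summary lines show that ambiguous and multiply aligned reads were set aside.

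Gene names, positions and coding sequences came from GENCODE release 44 (99.12% of identifiers matched), whereas the methods name release 29, so that overlaps between genes may differ from those in the counting. C2H2 fingers and KRAB domains were found by pattern in the translated coding sequences, in place of the planned RefSeq proteins. CPM values and the edgeR 4.0.16 quasi-likelihood test (limma 3.58.1, R 4.3.3) used TMM scaling, filterByExpr at 10 counts, 1 model of all 12 libraries and Benjamini-Hochberg adjustment over 26023 genes, two-sided. Calls needed an adjusted p below 0.05. After the main fit the test was also run on counts simulated from its means and spread, with 200 changed genes. The outcome is not given here. SE values come from the F statistic. Replicate pairs differed beyond sampling noise (chi-square per degree of freedom 5.30 to 14.9).

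The members and lists were chosen with earlier results of these data known. Named genes were the listed members, the 4 largest called increases and decreases per comparison without overlap of groups, the 3 largest interactions of each sign and the 5 highest levels per kb of exon. Alternatives covered scaling, filters, DESeq2 1.42.0, the groups fitted, a replicate block, a 2-fold threshold, overlaps, background and leaving out each library.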

Additional observations from a re-analysis of the deposited data

Results flagged for a closer look

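The difference between the hairpin effects in TET2 KO and TET2 WT, tested as an interaction (edgeR quasi-likelihood, Benjamini-Hochberg adjusted p under 0.05), was called positive in 95 members and negative in 25. Among members named in the text the largest positive values were 2.87 for ZNF585B, 2.18 for ZNF607, 1.89 for ZNF527 and 1.31 for ZNF582, on the log2 scale. Smaller positive values were 0.92 for ZNF627, 0.84 for ZNF350, 0.78 for ZNF649, 0.54 for ZNF274, 0.53 for ZNF304, 0.29 for ZNF431, 0.28 for ZNF611, 0.24 for ZNF808, 0.22 for ZNF146, 0.21 for ZNF93 and 0.17 for ZNF586. Negative values were -3.55 for ZNF382, -3.48 for ZNF610, -3.11 for ZNF404, -1.08 for ZNF331, -0.77 for ZNF175, -0.68 for ZNF91, -0.51 for ZNF587 and -0.24 for ZNF765. Of these calls that of ZNF350 was lost under 12 alternatives, ZNF765 under 10, ZNF808 under 9, ZNF585B under 8, ZNF93 under 6, ZNF586 under 5, ZNF304 under 4 and ZNF146 under 2, with DESeq2 or other scaling, a filter or a left-out library. MBD6 itself had an interaction of 0.75 (adjusted p = 4.51e-07), since its RNA was lower with the hairpin in TET2 WT and not in the libraries labelled TET2 KO.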

How the results depend on the processing

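Requiring a 2-fold change left 34, 29, 6, 7 and 28 members called for the genotype comparisons with shControl and shMBD6, the hairpin comparisons in TET2 WT and TET2 KO and the interaction, of which 10, 6, 4, 4 and 19 were higher and 24, 23, 2, 3 and 9 lower. Without members that overlap a gene on their strand, fewer were tested (137), and 76, 69, 51 and 77 were called with shControl, in TET2 WT, in TET2 KO and for the interaction; the other counts that moved were 20 higher with shControl, 6 higher in TET2 WT, 13 lower in TET2 KO and 10 negative interactions. With the 126 members at least 3 times above background, 78 were called and 53 lower in the first genotype comparison, 14 were lower in the second, 6 were higher with the hairpin in TET2 WT and 13 had a negative interaction. DESeq2 called 59 lower in the second genotype comparison and 20 higher with the hairpin in TET2 WT. Scaling by total gene counts called 18 lower in TET2 KO with the hairpin. Other counts stayed within 1.5 times, and leaving out any 1 library gave 101 to 123, 109 to 122, 91 to 111, 67 to 77 and 109 to 124 members called.

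Without the 10 highest genes the members' shares were 0.463%, 0.417%, 0.396% and 0.433%. The median level was 0.499 CPM per kb of gene span and 2.09 CPM per kb of exon when scaled by total counts. A cluster gap of 0.5 Mb gave 10 clusters. Of 167 results for named members, 113 kept their call and direction under every alternative run for single genes, 36 lost a call and 16 gained one under at least 1. Scaling by total counts turned the genotype changes with shControl of ZNF586 to -0.15, ZNF83 to -0.08 and ZNF93 to -0.13, and that of ZNF83 with shMBD6 to -0.02. Same-numbered replicates did not deviate together (correlations of -0.007 to 0.031 over 18 pairs), and with the replicate number as a block 119, 120, 104, 77 and 120 members were called.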
